A study of Mus musculus with 10 samples.

Results

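Collagens are the secreted or membrane-bound proteins built from 3 chains wound into a triple helix. Fibrillar collagens form the banded fibres of connective tissue, fibril-associated collagens decorate those fibres, and type IV collagens form the sheet that underlies the cells of blood vessels. In the brain, fibrillar collagens are known mainly from fibroblasts of the meninges and of vessel walls, type IV collagens from the basement membrane of vessels, and a few transmembrane and fibril-associated collagens from neurons. The collagen genes were taken here by name, as the non-control probes whose gene name starts with Col and a digit and goes on to hold the letter a and a digit. The rule found 44 gene names with 90 probes, among 27339 gene names and 41174 probes on the array. One of them, Col4a3bp, encodes a ceramide transfer protein and is no collagen, which left 43 collagen genes with 86 probes. Emid2, which RefSeq now lists as Col26a1, falls outside the rule.

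RNA came from the hippocampus of 10 adult ICR mice, an outbred stock, and was read on 1-colour Agilent arrays. In the HE group, 5 arrays, dams were dosed by mouth with estradiol valerate (an ester that yields estradiol in the body) in corn oil at 100 µg/kg/day in early gestation (E5.5 to E11.5). In the NC group, 5 arrays, dams were given corn oil alone. All 10 offspring were labelled male and none was itself treated; the labels give no litter, so that p-values measure the spread between these samples only. The comparison asks how exposure to excess estradiol in the womb relates to expression in the adult hippocampus. Signals are given as log2 of the processed signal relative to the 75th percentile of the array, so that a value of 0 is the signal below which 75% of spots lie. These levels depend on the probe, and no gene's level is set against that of another.

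The 75th percentile of the signal was 899 to 1289, and the share of probes well above background was 70.27% to 78.85%; the number of arrays limits the precision. Slide 1 held NC 1 to NC 4, slide 2 held HE 1, HE 2 and NC 5, and slide 3 held HE 3 to HE 5, so that only slide 2 held both groups. Xist, the RNA of the inactive X chromosome, was high (3.20 to 4.44) on HE 1 to HE 3 and NC 1 to NC 4, against the male label on these 7 arrays. In lists of markers of cells and tissues, 13 of 14 thalamic neuron genes, 10 of 13 oligodendrocyte genes and 4 of 10 liver genes fell in HE. Over all genes tested, 13.3% fell. Of the hippocampal neuron genes, 5 of 17 rose, where 6.82% of all genes did. The mean over the thalamic list was -0.76 to 0.50 on HE arrays and 0.53 to 2.03 on NC arrays. Over the liver list, which shares Ttr with the choroid plexus list, it was -7.32 to -5.29 on HE arrays and -6.31 to -1.27 on NC arrays. Only 2 of the 10 liver genes were well above background on all 10 arrays. The 4 that fell were dim in HE, with means of -8.43 to -7.65. The part of these differences in the collagen values was not tested, and in tissue RNA fewer cells of a type and less RNA per cell cannot be told apart.

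Of the 43 collagen genes, 39 were tested, since a probe was kept where 1 group had 3 or more of its 5 arrays well above background. The 4 others were Col10a1, Col28a1 and Col6a6, on no array well above background, and Col4a3, seen on 1 HE array by 1 of its 3 probes. Among the 39, 35 were well above background on all 10 arrays, and the 39 genes lie on 14 chromosomes. Each gene was represented by its probe with the highest mean signal.

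Of the 39 collagen genes, 2 fell in HE, Col16a1 and Col7a1, and 0 rose (limma, Benjamini-Hochberg adjusted p under 0.05 over all 20065 genes). Over all genes tested, 13.3% were lower and 6.82% higher by the same rule, 20.1% in all, and the difference between these shares was not tested. At an unadjusted p under 0.05, 7 collagen genes were lower and 0 higher, where 22.8% of all genes were lower and 14.1% higher. The median log2 fold change of the collagens was -0.197, beside -0.0434 over all genes, with 26 negative and 13 positive values (54.7% of all genes were negative), but it turned to 0.0222, with 18 negative and 21 positive values, after quantile normalization. The median SD of a collagen gene between arrays was 0.383 in HE and 0.505 in NC, where it was 0.21 in HE and 0.272 in NC over all genes. The median standard error of their fold changes was 0.278, against 0.159 over all genes. Normexp background correction moved the median of all genes to -0.291, with 7093 of the 20065 genes called lower and 1787 higher. It called 24 collagens lower in HE and 0 higher. Of the 24, 9 were fibrillar, 5 fibril-associated and 4 transmembrane. Centred on the median gene, normexp called 17 collagens lower, with 5589 lower over all genes.

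**Figure D1:**
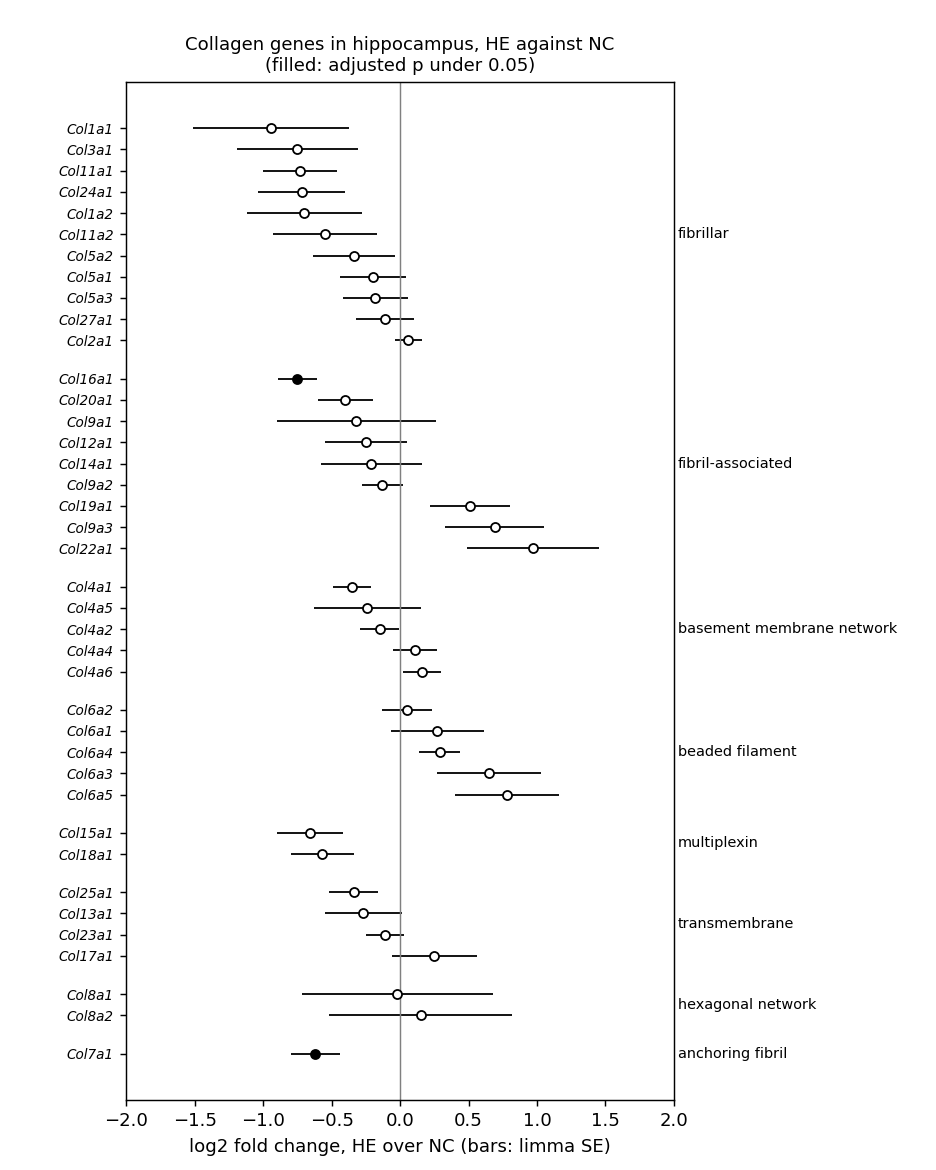
Log2 fold change (HE over NC) of the 39 tested collagen genes, grouped by class, with limma standard errors as bars; filled points have an adjusted p under 0.05. Only Col16a1 (-0.75) and Col7a1 (-0.62) are filled; 10 of 11 fibrillar collagens lie left of 0 and all 5 beaded-filament collagens lie right of it.

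Col16a1, a fibril-associated collagen that links fibrils to other matrix proteins, had the smallest p among the probes that represent the 39 collagens. Its level was 0.57, 0.67, 0.57, 0.57 and 1.09 on HE 1 to HE 5, against 1.12, 1.55, 1.46, 1.37 and 1.69 on NC 1 to NC 5. The groups did not overlap, although HE 5 lay just below NC 1; among the collagens this was so for 1 gene lower in HE, and over all genes for 10.5%. Col16a1 averaged 0.69 ± 0.23 in HE and 1.44 ± 0.21 in NC (SD, n = 5 each), a log2 fold change of -0.75 ± 0.14 (SE, adjusted p = 0.0114), or 1.68-fold lower. It passed without any 1 array (log2 fold changes of -0.85 to -0.68), but within slide 2, with slide as a block, the value was -1.08 with an adjusted p of 0.0864. It passed with the fibroblast marker mean as a covariate (-0.68, adjusted p = 0.0222), but not with normexp centred on the median gene (-0.33, adjusted p = 0.243).

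Col7a1, which forms the anchoring fibrils that tie epithelial basement membranes to the tissue beneath, was also lower in HE. The signal was -1.69, -1.38, -2.21, -1.78 and -1.54 on HE 1 to HE 5, against -0.94, -0.93, -1.53, -1.27 and -0.84 on NC 1 to NC 5. The groups overlapped through NC 3, which lay among the HE arrays. Means were -1.72 ± 0.32 in HE and -1.10 ± 0.29 in NC (SD, n = 5 each), and the log2 fold change was -0.62 ± 0.18 (SE, limma adjusted p = 0.0396), or 1.53-fold lower. This call was lost when HE 1 (-0.62), HE 3 (-0.49), HE 4 (-0.60), HE 5 (-0.66), NC 1 (-0.58), NC 2 (-0.58) or NC 5 (-0.55) was left out, with adjusted p of 0.0561 to 0.0903. Within slide 2 the value was -0.70 (adjusted p = 0.258 with slide as a block).

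The probes that carry these differences lie, by the files' own annotation on mm9, at chr4:129776345-129776404 (plus strand) for Col16a1 and at chr9:108886855-108886914 (plus strand) for Col7a1. The 30 bases shown from each 60-base probe hold a match to a polyadenylation signal motif, in capitals, which is the reason for showing them. It is AATAAA for Col16a1 and the common variant ATTAAA for Col7a1.
Col16a1: gactctactaggAATAAAtggccaaagctt
Col7a1: aggggacggggcATTAAAgctgctgtttta
Either motif, AATAAA or ATTAAA, was held by 7.49% of all 41174 probes and by 3 of the 39 collagen probes (7.69%). On the other strand the shares were 7% of all probes and 10.3% of the collagen probes, and a match says nothing on the RNA end used in these animals.

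The fibrillar collagens, which build the thick fibres of connective tissue, had lower means in HE for 10 of 11 genes, but 0 of 11 passed in either direction. Their median log2 fold change was -0.55, and -0.49 after quantile normalization, with 8 of 11 genes negative and 0 calls. After normexp correction, where 7093 of all genes were called lower, it was -0.87, with 11 of 11 negative and 9 called lower. With normexp centred on the median gene, where 5589 of all genes were called lower, it was -0.65, with 11 of 11 negative and 5 called lower. Col1a2, the α2 chain of type I collagen, had levels of 1.07, 1.71, 0.96, 1.23 and 0.66 on HE 1 to HE 5, against 0.27, 2.37, 1.48, 2.34 and 2.67 on NC 1 to NC 5. NC 1 was lower than every HE array, and the HE values lay within the NC range. Its log2 fold change was -0.70 ± 0.42 (SE, adjusted p = 0.260). Without NC 1 it was -1.09 with an adjusted p of 0.0278.

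Col1a1, the α1 chain of type I collagen, was -1.15, -0.67, -1.19, -1.98 and -2.19 on HE 1 to HE 5, and -2.28, 0.23, -1.31, 0.81 and 0.08 on NC 1 to NC 5. NC 2, NC 4 and NC 5 lay above every HE array, while NC 1 was the lowest of all 10. The log2 fold change of -0.94 ± 0.57 (SE, adjusted p = 0.254) was the most negative among the 39 collagens, and all 3 probes of the gene had the same sign (-1.48 to -0.94, none passing). Col3a1, the single chain of type III collagen of elastic tissues, was -2.35, -1.52, -2.17, -1.82 and -2.25 on HE 1 to HE 5, against -2.42, -1.15, -1.61, -1.58 and 0.36 on NC 1 to NC 5. NC 5 stood highest by far. Its log2 fold change was -0.75 ± 0.44 (SE, adjusted p = 0.241).

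Markers of meningeal and perivascular fibroblasts are set beside these 3 genes. Of the 27 listed markers, 26 were tested, 0 passed in either direction by limma, 23 were well above background on every array, and their median log2 fold change was -0.386. The mean over the list was -1.68, -1.04, -2.15, -1.12 and -1.79 on HE 1 to HE 5, against -2.18, -1.08, -1.22, -1.20 and -0.25 on NC 1 to NC 5. NC 5 was highest and NC 1 lowest, as for Col3a1 and Col1a2, while Col1a1 was highest on NC 4, where the mean was -1.20. The part of these markers in the collagen values was not tested beyond a fit with the list mean as a covariate. Dcn, a small proteoglycan that binds type I collagen fibrils, was 1.76 ± 0.75 in HE and 2.95 ± 0.86 in NC (SD, n = 5 each; limma adjusted p = 0.0902). With the list mean as a covariate, the log2 fold changes were -0.60 for Col1a1, -0.30 for Col1a2 and -0.31 for Col3a1 (limma adjusted p of 0.471, 0.455 and 0.364). Of all tested collagens, 1 was then lower in HE (Col16a1) and 1 higher (Col6a3), and Col7a1 did not pass (-0.55, adjusted p = 0.0847).

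**Figure D2:**
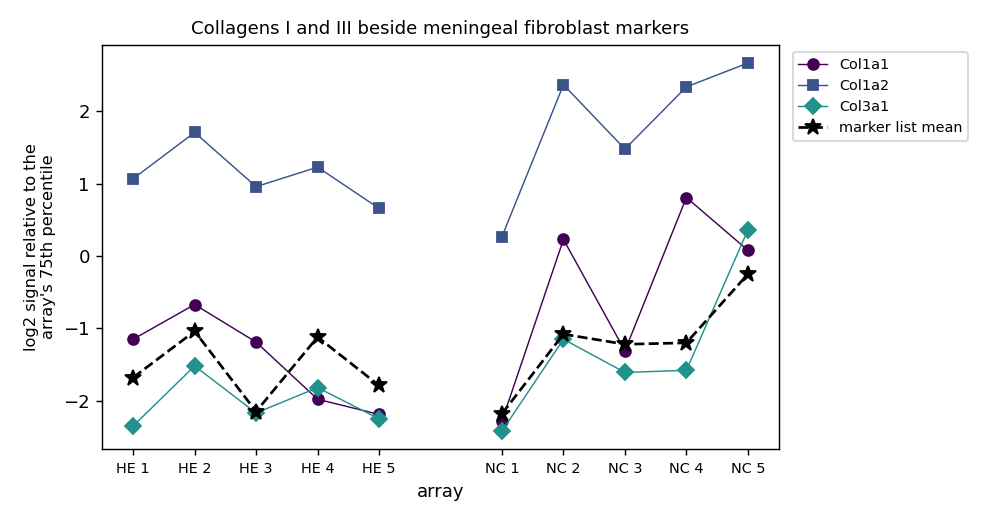
Level on each array (log2 signal relative to the array's 75th percentile) of Col1a1, Col1a2 and Col3a1, with the mean over 26 fibroblast markers as black stars; HE arrays are left of NC arrays. All of them are low on NC 1, and Col3a1 and the marker mean peak on NC 5, at 0.36 and -0.25.

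The other fibrillar collagens included both chains of type XI, which set the width of fibrils. Col11a1 was -2.13, -1.36, -2.35, -1.59 and -1.50 on HE 1 to HE 5, against -1.47, -0.65, -1.60, -1.12 and -0.41 on NC 1 to NC 5. The groups overlapped in the stretch between -1.60 and -1.36. The log2 fold change was -0.73 ± 0.27 (SE, adjusted p = 0.0823). When probes were tested one by one, a second Col11a1 probe, at chr3:113793086-113793145 (mm9, plus strand), passed. It measured -5.04 ± 0.41 in HE and -4.13 ± 0.40 in NC (SD, n = 5 each), a difference of -0.91 ± 0.24 (SE, limma adjusted p = 0.0243 over 30978 probes). Its sequence is given because it lies far from the first probe, at chr3:113922153-113922211, and carries the call.
Col11a1: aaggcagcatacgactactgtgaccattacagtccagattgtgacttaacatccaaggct

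Col11a2 ranged between -2.64 and -0.09 in HE and between -0.93 and -0.27 in NC, with a log2 fold change of -0.55 ± 0.38 (SE, adjusted p = 0.325). Col24a1, a minor fibrillar collagen, was -3.31 ± 0.43 in HE and -2.59 ± 0.65 in NC (SD, n = 5 each), a log2 fold change of -0.72 (adjusted p = 0.128), and passed without NC 4 (-0.95, adjusted p = 0.0377). Col5a2, a chain of the type V collagen inside type I fibrils, differed by -0.34 ± 0.30 (SE, adjusted p = 0.437). Col5a1, Col5a3 and Col27a1 had means within 0.20 of each other between the groups.

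Col2a1, the cartilage collagen, was read by a pair of 60-base probes that overlap by 40 bases on the minus strand of chromosome 15. The first probe, spotted once per array, lies at chr15:97806505-97806564, and the second, spotted 10 times, at chr15:97806485-97806544 (mm9). They are printed because they gave different results, with the shared bases in capitals.
Col2a1 single-spot probe: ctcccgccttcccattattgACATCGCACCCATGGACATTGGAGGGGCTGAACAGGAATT
Col2a1 ten-spot probe: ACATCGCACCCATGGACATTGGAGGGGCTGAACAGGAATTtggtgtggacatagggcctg
On the single-spot probe, which represents the gene, levels were -3.07, -3.00, -3.13, -3.35 and -3.37 on HE 1 to HE 5, against -3.17, -3.20, -3.40, -3.28 and -3.19 on NC 1 to NC 5. HE 1, HE 2 and HE 3 lay above every NC array and NC 3 below every HE array, with a log2 fold change of 0.06 ± 0.10 (SE, adjusted p = 0.692 over genes). The ten-spot probe gave -6.20, -6.05, -6.67, -6.36 and -6.26 on HE 1 to HE 5, against -5.35, -5.42, -5.34, -4.76 and -4.93 on NC 1 to NC 5. Here the groups were apart, with a difference of -1.15 ± 0.16 (SE, limma adjusted p = 0.00592 over probes). Its signal stood well above background on 3 of 5 HE arrays, against 5 of 5 NC arrays. No direction is given for Col2a1, and what sets the probes apart was not tested.

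**Figure D3:**
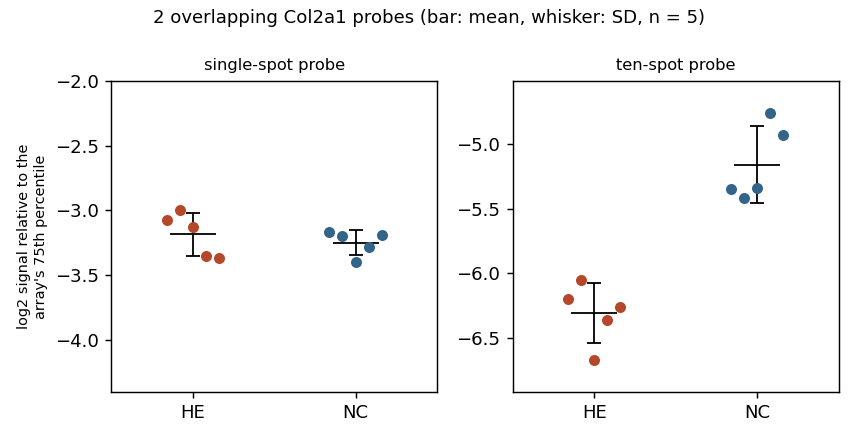
Level on each array (log2 signal relative to the array's 75th percentile) for the 2 overlapping Col2a1 probes, HE left of NC, with means and SD (n = 5 each); both panels span the same number of log2 units. On the single-spot probe the groups overlap around -3.2, and on the ten-spot probe every HE array (-6.67 to -6.05) lies below every NC array (-5.42 to -4.76).

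Among the other fibril-associated collagens, 0 passed and the signs were mixed: with Col16a1, 6 of 9 genes were negative, but 3 of 9 after quantile normalization. Col22a1, found at tissue junctions, was -0.94, -1.18, -1.11 and 0.72 on HE 1, HE 2, HE 4 and HE 5, against -0.49, -1.46, -1.50, -2.31 and -2.23 on NC 1 to NC 5. Its spot on HE 3 was marked as non-uniform or outlying by the scanner software and left out. HE 5 stood alone, and the log2 fold change of 0.97 ± 0.48 (SE, adjusted p = 0.178) was the most positive among the 39 collagens. Col20a1 differed by -0.40 ± 0.20 (SE, adjusted p = 0.176), with HE 3 the lowest of all arrays at -3.42. Col19a1, known from interneurons in mouse brain, was -0.94 ± 0.50 in HE and -1.44 ± 0.51 in NC (SD, n = 5 each), a log2 fold change of 0.51 ± 0.29 (SE, adjusted p = 0.231), and its 3 probes all had this sign. Col12a1 and Col14a1, which coat fibrils, averaged -5.29 and -5.51 in HE and -5.03 and -5.30 in NC.

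Type IX collagen, built of 3 different chains, and type VIII collagen of hexagonal networks showed an uneven pattern that crossed the groups. Col8a1 was 1.46, 2.02, -0.94, 1.43 and -0.64 on HE 1 to HE 5, against -0.40, 0.56, 2.59, 0.26 and 0.45 on NC 1 to NC 5. HE 1, HE 2, HE 4 and NC 3 were high. Col8a2, its partner chain, was -1.54, -0.89, -3.84, -1.53 and -3.16 on HE 1 to HE 5, and -3.09, -3.12, -0.40, -2.64 and -2.48 on NC 1 to NC 5. The same 4 arrays were the highest. Adjusted p-values were 0.985 for Col8a1 and 0.893 for Col8a2, with SD of 1.35 and 1.24 in HE and 1.12 for each gene in NC.

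Col9a3 was -1.27, -1.20, -1.92, -1.15 and -1.85 on HE 1 to HE 5, against -2.58, -2.88, -0.85, -1.93 and -2.59 on NC 1 to NC 5, again highest on those 4 arrays. Its log2 fold change was 0.69 ± 0.36 (SE, adjusted p = 0.197), and without NC 3 it was 1.02 with an adjusted p of 0.0222. Col9a1 reached -2.64 on NC 3 and lay between -6.37 and -4.73 on the other 9 arrays. Col9a2, the remaining chain, ranged between -0.14 and 0.48 in HE and between -0.06 and 0.60 in NC, and was lowest on HE 2 and NC 3.

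Markers of the choroid plexus, the secretory epithelium beside the hippocampus, were uneven in the same way. The mean over 16 tested of 17 listed markers was -0.46, 0.27, -3.07, -0.36 and -3.28 on HE 1 to HE 5, against -2.41, -3.17, 0.75, -2.03 and -1.98 on NC 1 to NC 5. The 4 high arrays were those on which Col8a1, Col8a2 and Col9a3 were high. Of the 16 markers, 14 were well above background on all 10 arrays, and 0 passed by limma. Ttr, the thyroid hormone carrier that defines this epithelium, was 2.78, 3.76, -0.63, 3.06 and -1.49 on HE 1 to HE 5, against 0.55, -2.10, 4.23, 0.51 and 0.23 on NC 1 to NC 5. With the list mean as a covariate, Col16a1 and Col18a1 were the collagens that passed, both lower in HE.

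**Figure D4:**
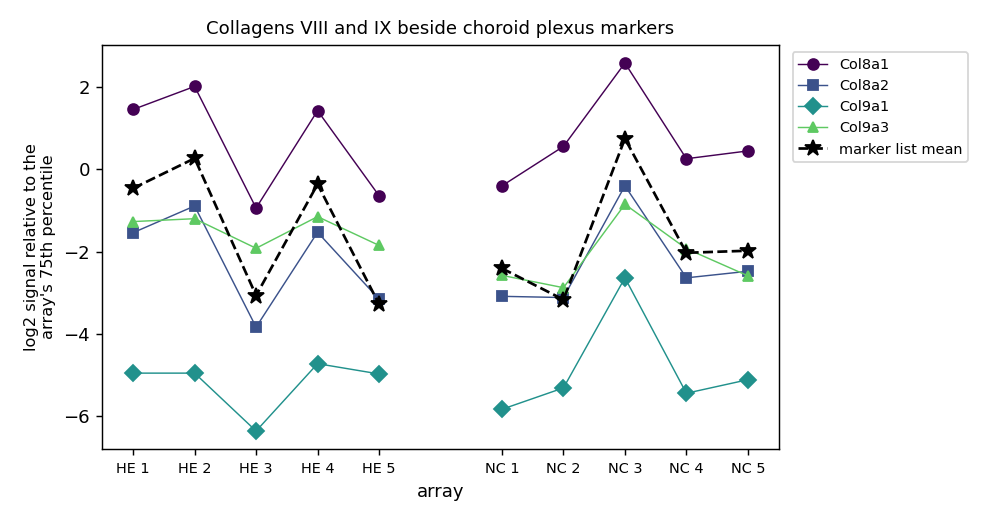
Level on each array (log2 signal relative to the array's 75th percentile) of Col8a1, Col8a2, Col9a1 and Col9a3, with the mean over 16 choroid plexus markers as black stars; HE arrays are left of NC arrays. Col8a1, Col8a2, Col9a3 and the marker mean are high on HE 1, HE 2, HE 4 and NC 3, while Col9a1 peaks on NC 3 at -2.64.

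On the probes that represent them, the type IV collagens of vascular basement membranes had small differences, and 0 of the 5 tested passed. Col4a2 was -1.14, -0.90, -1.37, -0.90 and -0.78 on HE 1 to HE 5, against -0.78, -0.71, -1.12, -1.04 and -0.68 on NC 1 to NC 5. The groups overlapped along most of their range, with a log2 fold change of -0.15 ± 0.14 (SE, adjusted p = 0.460). Col4a1, which joins Col4a2 in the common trimer, was -1.42, -1.09, -1.39, -1.11 and -0.98 on HE 1 to HE 5, against -0.58, -0.68, -1.18, -0.95 and -0.86 on NC 1 to NC 5. Apart from NC 3, every NC array lay above every HE array. The log2 fold change of Col4a1 was -0.35 ± 0.14 (SE, adjusted p = 0.0951), and without NC 3 it passed (-0.43, adjusted p = 0.0461). Col4a4, Col4a5 and Col4a6 had adjusted p-values of 0.431 to 0.694. The sign depended on the probe for Col4a2 and Col4a6. The other Col4a2 probe differed by 0.22. Col4a6 averaged -2.58 in HE and -2.74 in NC on its representing probe, but -4.07 and -3.39 on its other entering probe.

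Col4a1 and Col4a2 lie head to head: their RefSeq starts (GRCm38.p6, chromosome 8) are 11312826 on the minus strand and 11312805 on the plus strand, 21 bases apart. Over the 10 arrays their levels moved together (Pearson's r = 0.82, permutation p = 0.00366, adjusted p = 0.011; Spearman's rho = 0.85, permutation p = 0.00279, adjusted p = 0.0112). The r was 0.85 without NC 1 and HE 1, the arrays farthest from the median of Col4a1, and 0.84 after the group means were removed. In all, 12 pairs were computed, 10 of chains that share a trimer and 2 of a type I chain with Col3a1, chosen with the values known, with 100000 resamples each. Col1a1 and Col1a2 gave r = 0.91 (permutation p = 0.00046, adjusted p = 0.00276; rho = 0.85, permutation p = 0.00268, adjusted p = 0.0112), and 0.90 without NC 4 and NC 2. Col1a2 and Col3a1, which form mixed fibrils, gave r = 0.85 (permutation p = 0.00011, adjusted p = 0.00132; rho = 0.95, permutation p = 0.00012, adjusted p = 0.00144), and 0.88 without NC 5 and NC 1. Over all 741 pairs of tested collagens the median r was 0.12, and 17 pairs (2.29%) reached the r of Col4a1 and Col4a2. The r of Col1a1 and Col1a2 was reached by 2 pairs (0.27%), and no such share is given for a negative r. Col8a1 with Col8a2 and Col9a1 with Col9a3 were not among the 12 pairs. The r of Col1a1 with Col3a1 (0.64), of Col4a5 with Col4a6 (0.44) and of the chains of type V (0.05), type VI (-0.58 to 0.49) and type XI (0.48) did not pass, with permutation p-values of r, adjusted over the 12 pairs, of 0.0844 to 0.886. By rho, Col1a1 with Col3a1 did pass (0.76, permutation p = 0.0149, adjusted p = 0.0359), and their r was 0.80 without NC 4 and NC 2. Col9a2 and Col9a3 moved in opposite directions (r = -0.84, permutation p = 0.00316, adjusted p = 0.011; rho = -0.83, permutation p = 0.00454, adjusted p = 0.0136), with an r of -0.77 without HE 2 and NC 3 and of -0.85 after the group means were removed. Col9a3 is among the genes that were highest on the arrays with high choroid plexus markers, and the part of those markers in this r was not tested. For Col9a1 and Col9a2 r was -0.59 (permutation p = 0.0614, adjusted p = 0.123), and -0.34 without NC 3 and HE 3. Slides held 4, 3 and 3 arrays, too few for an r within a slide.

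Both multiplexins, which are basement membrane collagens that carry sugar chains, had lower means in HE under every scaling tried. Of the 2, 0 passed here or after quantile normalization. With normexp correction, plain and centred, 2 passed, where 7093 and 5589 of all genes were called lower. Col18a1, the source of the fragment endostatin, was -1.33, -1.30, -2.01, -1.34 and -1.98 on HE 1 to HE 5, against -1.45, -1.28, -0.48, -1.18 and -0.72 on NC 1 to NC 5. All HE arrays lay below 4 of the 5 NC arrays. The log2 fold change was -0.57 ± 0.23 (SE, adjusted p = 0.0978), and -0.66 with the choroid plexus mean as a covariate (adjusted p = 0.0146). Col15a1 was -4.85, -4.72, -4.90, -4.70 and -4.97 on HE 1 to HE 5, against -4.05, -4.13, -4.56, -4.79 and -3.31 on NC 1 to NC 5. The HE arrays were tight, and NC 4 lay among them. The log2 fold change of Col15a1 was -0.66 ± 0.24 (SE, adjusted p = 0.0766), and without NC 4 it was -0.82 (adjusted p = 0.0320).

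**Figure D5:**
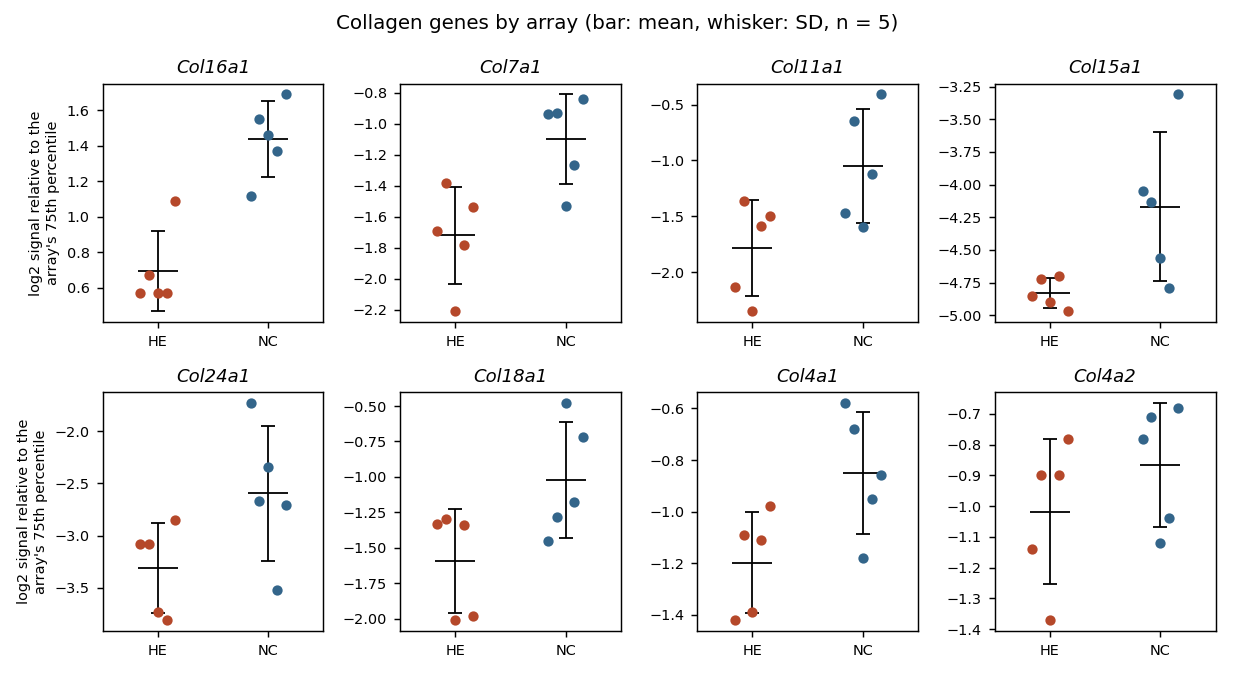
Level on each array (log2 signal relative to the array's 75th percentile) of 8 collagen genes, HE left of NC, with means and SD as bars (n = 5 each) and a separate axis range in each panel. The groups are apart for Col16a1 (0.57 to 1.09 in HE, 1.12 to 1.69 in NC) and overlap for the others.

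Type VI collagen, which forms beaded filaments around cells, was the class in which all 5 tested genes had higher means in HE, with a median log2 fold change of 0.29 and 0 calls. After quantile normalization the 5 were again positive, with a median of 0.51 and 1 call (Col6a4), but after normexp correction 4 of 5 were negative. Col6a1 was -1.08, -1.03, -0.76, -1.49 and 0.02 on HE 1 to HE 5, against -0.53, -0.54, -1.06, -1.72 and -1.85 on NC 1 to NC 5. HE 5 was the highest array, and the log2 fold change was 0.27 ± 0.34 (SE, adjusted p = 0.599). Col6a3 was -1.94 ± 0.64 in HE and -2.59 ± 0.68 in NC (SD, n = 5 each), a log2 fold change of 0.65 ± 0.38 (SE, adjusted p = 0.236); it passed with the fibroblast mean as a covariate (0.99, adjusted p = 0.0385). Col6a4 differed by 0.29 ± 0.15 (SE, adjusted p = 0.204), and without NC 1 by 0.42 (adjusted p = 0.0272). Col6a5 differed by 0.78 ± 0.38 (SE, adjusted p = 0.171), but was well above background on 4 HE arrays and 1 NC array only. It was thus tested only because of its HE arrays, the group in which it was higher. Col6a2 averaged -3.12 in HE and -3.17 in NC, while its other entering probe went the other way (-5.80 in HE and -5.43 in NC).

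Of the transmembrane collagens, 0 of 4 passed. Col23a1 was -2.73, -2.86, -2.98, -2.80 and -2.31 on HE 1 to HE 5, against -2.78, -2.77, -2.68, -2.37 and -2.52 on NC 1 to NC 5, with overlapping groups (adjusted p = 0.594). Col25a1, a neuronal collagen known to bind amyloid in plaques, was -3.34 ± 0.28 in HE and -3.00 ± 0.32 in NC (SD, n = 5 each), a log2 fold change of -0.34 (adjusted p = 0.198). Col13a1 averaged -4.92 in HE and -4.65 in NC. Col17a1 was well above background on 3 HE arrays and 1 NC array. Outside the collagens, Col4a3bp was 2.87 ± 0.12 in HE and 2.94 ± 0.23 in NC (SD, n = 5 each; limma adjusted p = 0.700).

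Probes of 1 gene did not always give 1 sign. Of the 17 collagen genes with several entering probes, 12 had all their probes on 1 side of 0. Tested one by one, 4 of 61 collagen probes were lower in HE and 0 higher, where 14.8% of all probes were lower and 8.21% higher. The 4 belonged to Col16a1, Col7a1, Col11a1 and Col2a1.

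Genes that make, bind or break down collagen were set beside the collagens. The counts are to be read against the 13.3% of all genes that were lower and the 6.82% that were higher, and no list was tested as a set. Among 29 tested genes of collagen synthesis and processing, 3 fell in HE and 0 rose, with a median log2 fold change of -0.129. They were P4ha2, a prolyl hydroxylase that stabilises the helix (-0.55, adjusted p = 0.0112), Adamts2, which trims the N-terminal propeptide of fibrillar collagens (-0.98, adjusted p = 0.0126), and Plod2, a lysyl hydroxylase needed for cross-links (-0.82, adjusted p = 0.0322). P4ha2 was -1.31 to -1.05 on HE arrays and -0.80 to -0.38 on NC arrays, so that the groups did not overlap. Plod2 did not pass without HE 1 (-0.71), HE 3 (-0.73), HE 5 (-0.86), NC 2 (-0.80), NC 3 (-0.80) or NC 5 (-0.70). Ppib, a cyclophilin of the collagen-modifying complex, was 3.28 ± 0.13 in HE and 3.55 ± 0.10 in NC (SD, n = 5 each; limma adjusted p = 0.0623).

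Of 9 tested collagen receptors, 2 fell and 1 rose, where 20.1% of all genes passed in either direction. Itga11, the integrin chain for fibrillar collagen, rose by 1.08 ± 0.18 (SE, adjusted p = 0.00895), with -0.87, -0.62, -1.38, -0.62 and -1.18 on HE 1 to HE 5 and -1.74, -2.02, -2.39, -1.86 and -2.05 on NC 1 to NC 5. Every HE array lay above every NC array. Itga1, the integrin chain that binds type IV collagen, fell by 0.84 (adjusted p = 0.0157). Gp6, the collagen receptor of platelets, fell by 0.94 (adjusted p = 0.0144), with means of -6.76 in HE and -5.81 in NC. It did not enter where all 5 arrays of a group had to be well above background. After quantile normalization Gp6 did not pass (-0.62, adjusted p = 0.106). Lair1, an inhibitory receptor of immune cells, was -1.17 ± 0.24 in HE and -0.56 ± 0.40 in NC (SD, n = 5 each; limma adjusted p = 0.0538).

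Of 11 tested genes of collagen breakdown and its inhibitors, 1 fell: Timp4, an inhibitor of metalloproteinases, by 0.77 (adjusted p = 0.0103), where 13.3% of all genes fell. Its level was 1.28 to 1.48 on HE arrays and 1.81 to 2.58 on NC arrays. Mmp16, a membrane-bound metalloproteinase, was -0.91 ± 0.15 in HE and -1.28 ± 0.19 in NC (SD, n = 5 each; limma adjusted p = 0.0503). Ctsk and Timp1 had adjusted p-values of 0.0914 and 0.116.

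Among 18 tested partners of type IV collagen in basement membranes, 2 fell and 0 rose, where 13.3% of all genes fell. Nid1, nidogen, which links laminin to type IV collagen, fell by 0.82 ± 0.16 (SE, adjusted p = 0.0123), with -1.47 to -1.32 on HE arrays and -0.92 to -0.06 on NC arrays. Sparc, a collagen-binding glycoprotein, fell by 1.02 (adjusted p = 0.0312), but without HE 1, HE 2, HE 4, HE 5, NC 2, NC 4 or NC 5 it did not pass (-1.04 to -0.83). Fbln2 and Lamb3 had adjusted p-values of 0.119 and 0.390. Of the vessel markers, 3 of 20 endothelial genes fell, where 13.3% of all genes did (Vwf by 0.77, Ly6c1 by 0.69 and Kdr by 0.56, with adjusted p of 0.0215, 0.0220 and 0.0236), with a list mean of -1.73 to -1.45 on HE arrays and -1.69 to -1.04 on NC arrays. Vwf did not pass without NC 2 (-0.73) or NC 5 (-0.71), and Ly6c1 (-0.63) and Kdr (-0.55) did not pass without HE 1. Of 14 pericyte and smooth muscle genes, Acta2 rose by 0.72 (adjusted p = 0.0103) and Vtn fell by 0.56 (adjusted p = 0.0398). Vtn did not pass without any 1 HE array, nor without NC 2 or NC 5 (-0.58 to -0.45), and Acta2 was 0.15 as the mean of its probes (adjusted p = 0.765). With slide as a fixed block, the difference is that of HE 1 and HE 2 from NC 5, the only NC array on slide 2. It was -1.21 for Timp4 and -1.40 for Nid1, and NC 5 was the highest NC array for both (2.58 and -0.06). The difference was smaller in size than without a block for Itga1 (-0.75), Kdr (-0.36) and Acta2 (0.69). It was larger for the other called genes of these lists. With slide as a random block, all 14 called genes of these lists passed (limma adjusted p of 0.00731 to 0.0366). The correlation within slides was estimated there at -0.0254, so that this fit was close to the one without a block. On the arrays with high Xist alone, a fit with fewer arrays, all 14 missed the threshold (limma adjusted p of 0.0768 to 0.192). Since only slide 2 held both groups, slide and group cannot be told apart for these calls. With normexp centred on the median gene, Timp4 (-0.33), Sparc (-0.60), Ly6c1 (-0.32) and Vtn (-0.16) did not pass, and with normexp alone Itga11 (0.53), Sparc (-0.82) and Vtn (-0.38) did not. As means of their probes, Adamts2 (-0.35) and Vwf (-0.60) did not pass. The part of the vessel markers in the type IV, XV and XVIII collagen values was not tested.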

How the data were processed

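Hippocampal RNA of 5 HE and 5 NC samples was hybridised to 1-colour (Cy3) arrays, and, per the submitters' processing notes, the image software was Agilent Feature Extraction 10.7. The deposited scanner files hold spot intensity, background-subtracted and detrended within each array, per the file headers. The value table deposited by the authors holds log2 values whose processing is not given in the sources used here; they matched quantile-normalized log2 intensities with slopes of 1.0022 to 1.0026 and medians of 7.03336 to 7.03366, so that scale and direction are known and no centring was seen.

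Log2 processed intensity was taken relative to the array's 75th percentile. Spots marked non-uniform or outlying were left out (68 to 129 per array), none was saturated, and replicate spots were averaged. Probes entered with 3 or more of the 5 arrays of a group well above background, and the entering probe with the highest mean represented its gene. Names came from RefSeq (GRCm38.p6) for 27668 probes by accession, 93 by another accession and 5991 by symbol or synonym, and from the files for 7422. Probe positions are the files' own, on mm9. All 43 collagens were found in RefSeq.

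The test was limma's (version 3.58.1, R 4.3.3; lmFit, then eBayes, two-sided, no covariate), adjusted over all genes (Benjamini-Hochberg, 0.05), and was checked on simulated data. All collagens may be named, called genes and the top-signal gene of each class by array, and of each other list the 4 genes with the smallest p; the choice of others given by array was made with values known. The members and lists were chosen with earlier results of these data known. The correlations of same-numbered arrays' deviations, -0.0772 to 0.127, do not pair the samples. No 2 arrays were duplicates (SD of log2 differences within a group 0.444 to 0.722). Alternatives were slide or replicate blocks, slide 2 alone, normexp correction (offset 50), quantile normalization, the value table, other filters and probe rules, an intensity trend, the Xist pattern, subsets of arrays, and, chosen after seeing the data, 2 marker means as covariates.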

Additional observations from a re-analysis of the deposited data

Results flagged for a closer look

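The 39 collagens in HE and in NC made 78 groups of 5 arrays, or 4 for Col22a1 in HE. In 7 of the 78, 1 array lay far from the others by Dixon's test, which chance gives in about 1 of 20 groups. Col16a1 was 1.09 on HE 5, with the nearest HE array at 0.67. Col22a1 was 0.72 and Col14a1 -5.04 on HE 5, both above the other HE arrays. Col20a1 was -3.42 and Col9a1 -6.37 on HE 3, both below the other HE arrays. Col9a1 was -2.64 and Col8a2 -0.40 on NC 3, the array with the highest choroid plexus mean (0.75).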

How the results depend on the processing

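Col16a1 passed in 24 of 28 alternatives (log2 fold changes of -1.08 to -0.33) and Col7a1 in 14 of 28 (-0.74 to -0.49). Of the 39 collagens, 2 were called lower and 0 higher, at -0.197 in the median, with 1369 genes higher and 2662 lower over all. With slide as a fixed block, 0 collagens were lower in HE by limma, with 104 genes higher and 81 lower over all; on slide 2 alone, 0 collagens passed and 0 genes passed in either direction. With the replicate block, 767 genes were higher and 3 collagens lower, Col11a1 added. Normexp correction moved the median of all genes to -0.291, against -0.0434, and gave 7093 lower genes and 24 lower collagens with a median of -0.744; centred on the median gene it gave 3273 higher and 5589 lower genes and 17 lower collagens with a median of -0.525. Quantile normalization and the value table each added 1 higher collagen, Col6a4, and turned the collagen median to 0.0222 and 0.0229. Means of probes gave 4 lower collagens, and single probes 4, with 2543 probes higher and 4570 lower over all. With no filter, Col6a6, well above background on no array, took the place of Col7a1. Without NC 1, NC 2 and NC 4, 872 genes were higher and 1046 lower, with 1 collagen lower. With the Xist pattern as a covariate 4 collagens were lower, Col11a1 and Col15a1 added, and on arrays with high Xist alone 8 genes were higher, 69 lower and 0 collagens passed. With the fibroblast mean as a covariate, 912 genes were higher and 1699 lower, with 1 collagen higher (Col6a3) and 1 lower. Leaving out 1 array gave 592 to 1546 higher and 1337 to 2717 lower genes, 0 to 1 higher and 1 to 4 lower collagens, and medians of -0.26 to -0.0634. In all, 21 of the 39 collagens changed sign in at least 1 alternative, 16 of them genes whose fold change the text does not give, with up to 9 reversals (Col8a1 and Col8a2). Of the genes given a fold change, signs turned under normexp, plain and centred, for Col6a5 (-1.37 and -1.15), Col6a4 (-0.80 and -0.58), Col6a3 (-0.23 and -0.01) and Col2a1 (-0.69 and -0.47), for means of probes of Col4a2 (0.04) and Col2a1 (-0.54), and for Col6a3 without NC 1, NC 2 and NC 4 (-0.02). Where fits held fewer arrays, the test had less to work with; otherwise the cause was not tested. Signal over background limits the array: 3 of the 4 untested collagens were well above it on no array, and Col4a3 on 1.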
